A study of Saccharomyces cerevisiae with 9 samples.

Results

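Loss of Rpa49 was compared with the wild type (WT) along the 35S ribosomal RNA gene of budding yeast, nucleotide by nucleotide, with the transcribed spacers and the mature rRNA sequences each scaled on their own reads. All 6 libraries labelled WT or rpa49Δ were used, 3 of each, out of 9 libraries in the study, and the remaining strain, rpa34Δ, is not analysed here. The members are the 6858 positions of the gene, 1504 of them in spacers and 5354 in mature rRNA. The assay was native elongating transcript sequencing (NET-seq), in which RNA polymerase I (Pol I) was immunoprecipitated with the RNA it carried and each read marks the base at the 3′ end of 1 RNA. The WT carried no stated alteration and the rpa49Δ strain lacked RPA49. Both were listed as untreated and grown at 30 °C with nutation. The labels give no strain background. They also do not say whether the 3 libraries of a strain were grown apart, and a p-value here covers library-to-library spread, which may be technical. The values cover only the rRNA gene, so RPA49 itself could not be read as a check of the deletion.

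Pol I makes a single long precursor that holds 18S, 5.8S and 25S rRNA between an external spacer at each end (ETS 1 and ETS 2) and a pair of internal spacers (ITS 1 and ITS 2). Spacers are cut out and degraded, whereas the mature parts accumulate in ribosomes. Rpa49 and its partner Rpa34 form a heterodimer on the Pol I lobe that resembles the Pol II factor TFIIF, and the C-terminal part of Rpa49 binds DNA near the cleft. Cells survive without Rpa49 but grow slowly. A peak of RNA 3′ ends in NET-seq is read as a place where polymerase dwells, but an RNA already cut or trimmed and carried along in the immunoprecipitate also leaves a 3′ end. The part of processed or mature rRNA in these libraries was not tested.

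A block of rises at positions 3021 to 3027, just past a mature rRNA end, is described below. It held 2.41% of spacer reads in WT and 13.3% in rpa49Δ. Many of the other spacer positions with large changes lie in purine-rich stretches of ETS 1 and ITS 1 and in a pyrimidine-rich stretch of ETS 1. Their RNA sequences are shown 5′ to 3′, read from the base column of the deposited table. Capitals mark positions with a large change and were set after the values were seen. In the purine stretches the last capital rose in rpa49Δ and the capitals before it fell. In the pyrimidine stretch all capitals rose. The gene lies on the minus strand of chromosome XII in build R64, and position 1 is its first nucleotide.
ETS 1 purine stretch, positions 89 to 114, chrXII:467456-467481, capitals at 98, 102 and 106: cgucaaacgGuggAgagAgucgcuag
ITS 1 purine stretch, positions 2652 to 2677, chrXII:464893-464918, capitals at 2659 and 2666: ccaaacgGugagagAuuucugugcuu
ETS 1 purine stretch near 18S, positions 614 to 639, chrXII:466931-466956, capitals at 622, 623 and 626: cuagcaagAGggAauaggugggaaaa
ETS 1 pyrimidine stretch, positions 125 to 150, chrXII:467420-467445, capitals at 136 to 140: gaucugccuagUCUCUauacagcgug

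WT libraries held 4448068 to 5353045 reads and rpa49Δ libraries 1242139 to 1568118. Spacers took 9.55% ± 1.00 of reads in WT and 2.59% ± 0.224 in rpa49Δ (SD, n = 3), which left 401859 to 573098 spacer reads in WT libraries and 29213 to 43218 in rpa49Δ. To look past that drop, each value below is a read count per 1000000 spacer reads (spacer RPM) or per 1000000 mature rRNA reads (mature RPM) of its library. A change is therefore a change in the pattern within a class and not in amount. In spacers 1 read was worth 1.74 to 2.49 spacer RPM in WT and 23.1 to 34.2 in rpa49Δ, so low spacer values in rpa49Δ rest on few reads. Every rpa49Δ library was shallower than every WT library, so depth and strain cannot be told apart.

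The spacer pattern of rpa49Δ differed from that of WT far more than the libraries of a strain differed from each other. Over the 1209 spacer positions with a mean of at least 100 spacer RPM, the log2 profiles of 2 WT libraries correlated at r = 0.982 to 0.985, those of 2 rpa49Δ libraries at 0.884 to 0.912, and those of 1 library of each strain at 0.420 to 0.453. Over 5322 mature rRNA positions the same values were 0.976 to 0.988, 0.965 to 0.974 and 0.853 to 0.878. These correlations are descriptions across positions, which share the sequence and the depth of a library. Of the spacer positions, 207 rose (17.1%) and 490 fell (40.5%) in rpa49Δ, and of the mature positions 1160 rose (21.8%) and 1282 fell (24.1%), by limma at an adjusted p under 0.05. A few strong peaks hold much of the spacer total in rpa49Δ, and the median spacer position had a log2 change of -0.36. With the median position of each class set equal between libraries, the spacer split became 326 higher and 343 lower.

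The reads of rpa49Δ were gathered in fewer spacer positions. After thinning every library to the same number of spacer reads, the highest 5% of positions held 39.3%, 39.4% and 40.8% of spacer reads in the WT libraries and 61.6%, 61.5% and 61.7% in the rpa49Δ libraries. The Gini coefficient, a measure of unevenness, was 0.676 ± 0.00847 in WT and 0.777 ± 0.000405 in rpa49Δ. In mature rRNA the highest 5% of positions held 18.2% ± 0.707 of reads in WT and 19.6% ± 0.462 in rpa49Δ. Neither measure overlapped between strains in either class (two-sided exact permutation p = 0.1 each, the smallest that 3 against 3 libraries allow). As a description chosen after the values were seen, 11 positions (106, 138, 626, 2666 and 3021 to 3027) together held 3.51% ± 0.170 of spacer reads in WT and 33.7% ± 1.75 in rpa49Δ.

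**Figure D1:**
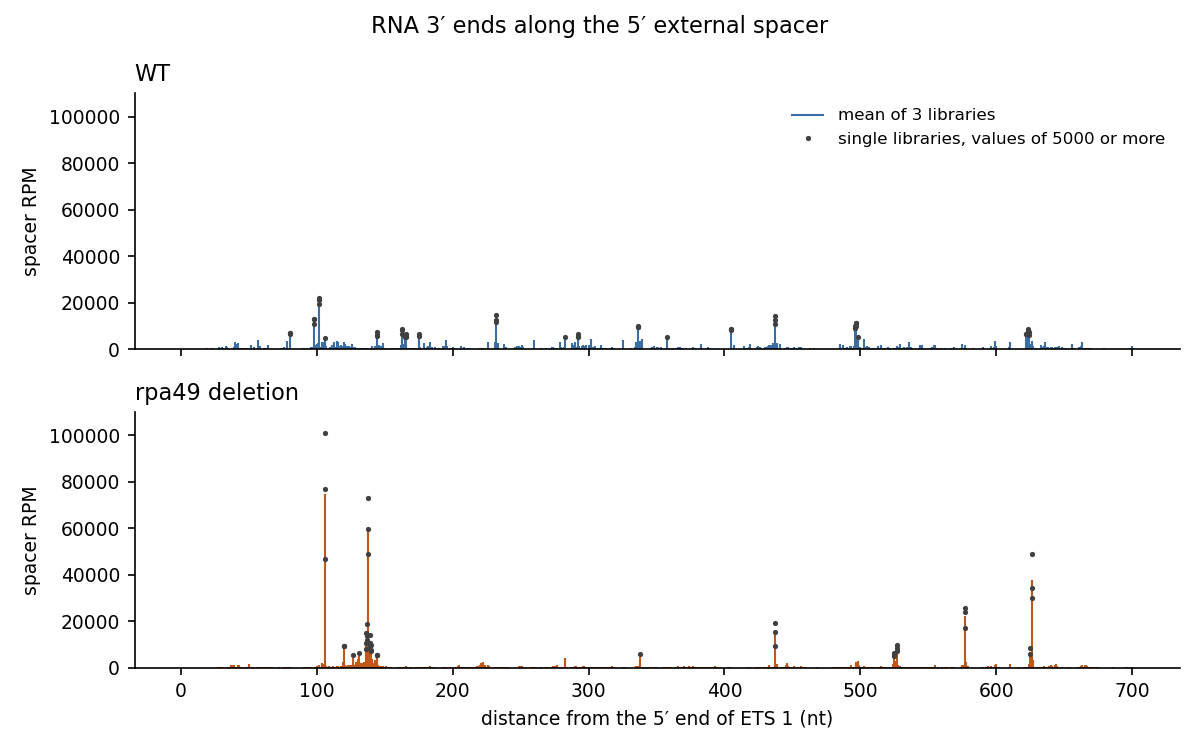
Level at each nucleotide of ETS 1 in spacer RPM against distance from its 5′ end, as the mean of 3 libraries (lines), with single libraries shown where they reach 5000 spacer RPM (points). The WT profile is spread over many peaks up to 21027 spacer RPM at position 102, whereas the rpa49Δ profile is dominated by positions 106 and 138, with means of 74909 and 60618.

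In the purine stretch near the start of ETS 1 the highest position of rpa49Δ lay 4 nt downstream of that of WT. Position 102 (A) held 21361, 19451 and 22270.2 spacer RPM in the WT libraries, the highest mean of any spacer position, and 1157, 1306 and 1027 in rpa49Δ. Position 98 (G) held 10872, 12813 and 13153 in WT and 486, 580.5 and 616 in rpa49Δ, from 18 to 24 reads a library. Every WT library stood far above every rpa49Δ library at both. They fell by 4.07 and 4.23 log2 units with SEs of 0.167 and 0.162 (adjusted p = 4.00e-09 and 2.40e-09, limma).

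Position 106 (A), 4 nt downstream of 102, went the other way. It held 4434, 4173 and 5046 spacer RPM in WT and 100907, 77059 and 46760.0 in rpa49Δ, where it had the highest mean of all spacer positions. It rose by 3.95 log2 units with an SE of 0.273 (adjusted p = 3.35e-07, limma). The rpa49Δ libraries ranged from 1366 to 4361 reads, and the lowest still stood above every WT library in spacer RPM. Positions 104 and 105, just before it, had log2 changes of -0.75 and -0.79, which did not pass the threshold with class medians set equal. As a sum, positions 98 and 102 went from 3.33% of spacer reads in WT to 0.172% in rpa49Δ, and position 106 from 0.455% to 7.49%.

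ITS 1 repeated this arrangement at a related sequence. Position 2659 (G) held 9399, 10499 and 9632 spacer RPM in WT and 231, 484 and 958 in rpa49Δ, from 10 to 28 reads, and fell by 4.07 log2 units with an SE of 0.321 (adjusted p = 9.99e-07, limma). Position 2666 (A), 7 nt downstream, held 2852, 2217 and 2356 in WT and 33921, 30693 and 26666 in rpa49Δ, and rose by 3.57 with an SE of 0.187 (adjusted p = 3.09e-08, limma). The strains did not overlap at either position.

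Both stretches share caaacggug, their longest run of identical bases, which occurs 2 times in the gene, once in each. The 7 bases that end at position 98, caaacgg, also occur 2 times, and the last base of each copy is one of the G residues that fell. The 6 bases that end at position 106, gagaga, occur 6 times. The last base rose at 106 and 2666, as shown, and in 25S at 3589 (log2 change 0.56), fell in ETS 1 at 183 and 557 (log2 changes of -1.55 and -1.47), and was too low to test in ETS 2 at 6702. Scaled on the reads of the whole gene, 106 and 2666 still rose, by 2.07 and 1.70. These searches covered the transcribed strand of the gene, and the letters were chosen after the values were seen.

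The remaining purine stretch lies near the 3′ end of ETS 1. Position 622 (A) held 6644, 4716 and 6468 spacer RPM in WT and 208, 218 and 34.2 in rpa49Δ, the lowest from 1 read, and fell by 4.66 log2 units with an SE of 0.296 (adjusted p = 1.60e-07, limma). Position 623 (G) fell by 4.12, from a mean of 7649 to 353. Position 626 (A) held 4407, 2489.7 and 4064 in WT and 30126, 48954 and 34197 in rpa49Δ, and rose by 3.34 with an SE of 0.259 (adjusted p = 8.78e-07, limma). Together, positions 622 to 624 went from 1.97% to 0.216% of spacer reads and positions 625 to 627 from 0.724% to 4.77%. Scaled on the reads of the whole gene, 626 still rose (1.47), but 625 and 627, which rose by 1.40 and 1.44 on the spacer scale, had log2 changes of -0.42 and -0.34.

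**Figure D2:**
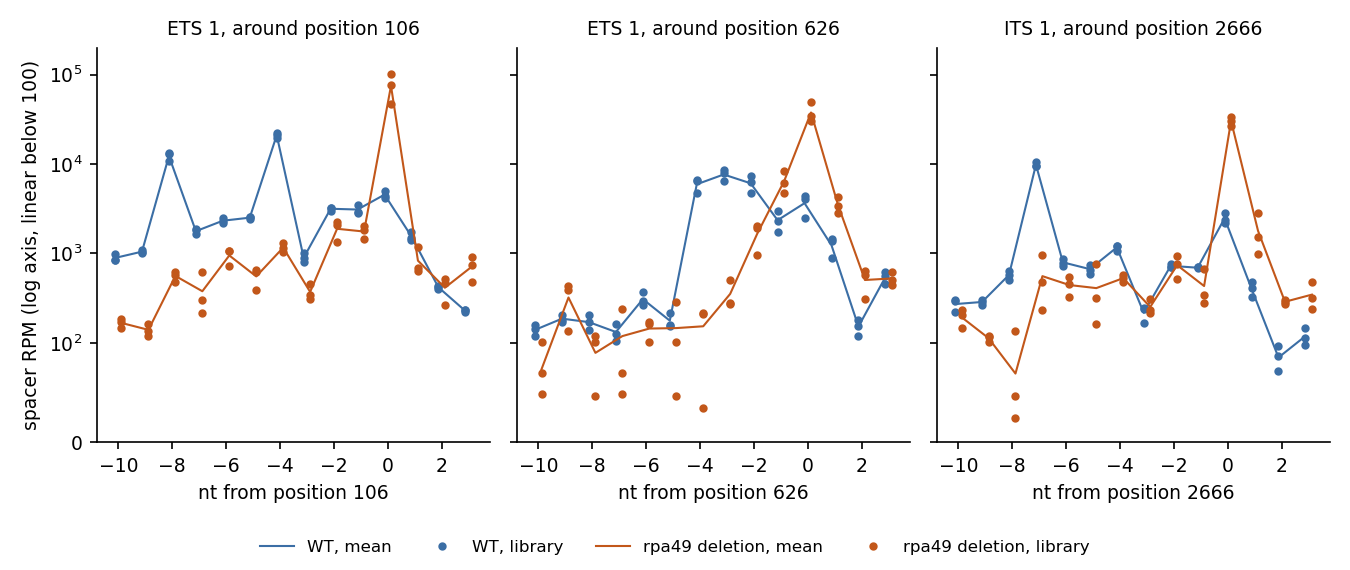
Level in spacer RPM (log axis, linear below 100) from 10 nt before to 3 nt after positions 106, 626 and 2666, with a point for each library and a line for the mean of each strain. In each panel the highest rpa49Δ level is at 0, and the highest WT level lies 3 to 7 nt before it.

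Over all spacer positions falls were followed by rises about as often as they were preceded by them. Of 339 spacer positions that fell by more than 2-fold, 72 had a position that rose by more than 2-fold 3 to 9 nt downstream and 64 had one 3 to 9 nt upstream. With class medians set equal these were 92 and 77 of 231. In mature rRNA these numbers were 7 and 5 of 243.

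The change of largest size in the spacers was at position 138 (U), in the middle of the pyrimidine stretch. It held 204, 231 and 265 spacer RPM in WT, less than the average spacer position, and 49054, 59717 and 73084 in rpa49Δ, from 2120 to 2469 reads. The ratio of the means was 259.7 and the rise 7.49 log2 units with an SE of 0.186 (adjusted p = 4.40e-11, limma). Its neighbours 136, 137, 139 and 140 rose by 4.19, 4.66, 4.66 and 4.42. Positions 136 to 140 together held 0.187% of spacer reads in WT and 10.6% in rpa49Δ. All positions from 129 to 143 rose on the spacer scale, though scaled on the whole gene 132, 134, 141, 142 and 143 had log2 changes below 0 (-0.21 to -0.61). The order of the rpa49Δ libraries was opposite at 106 and 138, with library 1 highest at 106 and lowest at 138.

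Other strong rises in ETS 1 were at 577 (U), from 2404, 1621 and 2042 to 24018, 25904 and 17218 spacer RPM (log2 change 3.40), and at 525 (U), from a mean of 347 to 5687 (log2 change 3.70). Some peaks of WT were almost lost. Position 232 (U) held 11574, 12543 and 14619 spacer RPM in WT and 463, 169 and 308 in rpa49Δ, and fell by 5.03 log2 units with an SE of 0.239 (adjusted p = 1.46e-08, limma), the largest fall among called spacer positions above the mean spacer level. Positions 405 (A), 163 (G), 496 (G) and 325 (U) fell, with log2 changes of -4.81, -4.64, -4.10 and -3.95. At 437 (G), another high WT peak, the libraries held 14500.1, 10984 and 12633 in WT and 9394, 15383 and 19443 in rpa49Δ, and these ranges overlapped (log2 change 0.16, adjusted p = 0.641 by limma). Scaled on the whole gene, 437 fell by 1.69.

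On the spacer scale most bins of ETS 1 outside these peaks fell. In 50-nt bins, 5 of 30 spacer bins rose (16.7%) and 19 fell (63.3%), and in mature rRNA 16 of 107 rose (15.0%) and 27 fell (25.2%), by limma at an adjusted p under 0.05. With class medians set equal, which added 0.73 to the log2 change of every spacer bin, spacer bins were 14 higher and 7 lower, and on the whole-gene scale mature bins were 38 higher and 16 lower. Of 14 bins in ETS 1, 2 rose and 10 fell, but with class medians set equal 4 rose and 5 fell. The mean level of the bin at 151 to 200 went from 1202 ± 101 to 242 ± 19.2 spacer RPM per nt, and that of the bin at 51 to 100 from 992 ± 2.24 to 217 ± 11.2 (log2 changes of -2.27 and -2.14, SEs of 0.0995 and 0.0873). By the median position of the bin these changes were -1.78 and -0.83. Between them, the bin at 101 to 150 rose from 1892 ± 135 to 5144 ± 57.0 (log2 change 1.44), which was 0.12 by its median position, past the threshold no longer, and -0.43 on the whole-gene scale. The bins that start at 301 and 451 had changes of -1.65 and -1.44 by the mean and -1.04 and -0.62 by the median position. For the bin at 551 to 600, which holds 577, the log2 change was 0.48 by its mean but -0.39 by its median position and -1.35 on the whole-gene scale.

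Each region was also divided into 3 equal parts. The 5′ part of ETS 1 held 40.0%, 40.8% and 40.3% of its reads in WT and 55.9%, 52.9% and 55.5% in rpa49Δ. The middle part went from 31.1% ± 0.413 to 15.5% ± 0.963, and the 3′ part from 28.5% ± 0.762 to 29.7% ± 1.79. The 5′ and middle parts did not overlap between strains and the 3′ part did (exact permutation p = 0.1, 0.1 and 0.4, or 0.131, 0.131 and 0.467 after adjustment over the 21 parts of the 7 regions).

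**Figure D3:**
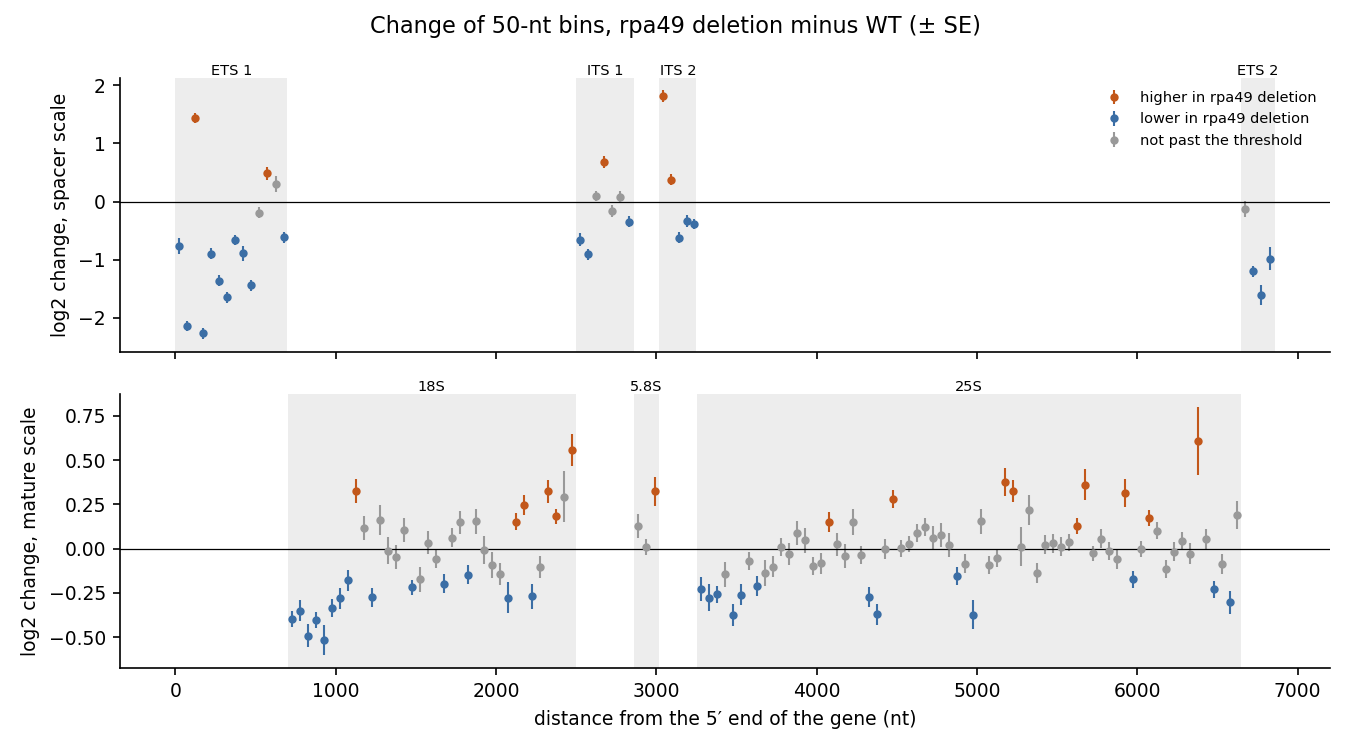
Log2 change of the mean level in 50-nt bins (rpa49Δ minus WT, points, with SE bars) against distance from the 5′ end of the gene, for spacers scaled on spacer reads (top) and mature rRNA scaled on mature reads (bottom). The bins that start at 101 and 3020 stand highest in the spacers, at 1.44 and 1.81 (on the whole-gene scale -0.43 and -0.057), and the first 8 bins of 18S all lie below 0.

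Among the spacers, ITS 2 took a larger share of spacer reads in rpa49Δ. It held 12.3%, 14.0% and 12.3% in WT and 23.2%, 21.0% and 23.0% in rpa49Δ, while ETS 1 held 63.9% ± 3.02 and 56.8% ± 2.28 and ETS 2 held 7.41% ± 1.14 and 5.83% ± 0.763. These 3 regions did not overlap between strains (exact permutation p = 0.1, or 0.140 after adjustment over 7 regions). ITS 1 held 15.8% ± 1.15 and 15.0% ± 0.279, which overlapped (exact permutation p = 0.3). Within ITS 2 the 5′ part went from 43.2% ± 0.392 to 75.4% ± 1.15 of its reads, with no overlap. With the 10 nt on each side of every mature rRNA end left out, an alternative added after the data were seen, ITS 2 held 10.6% in WT and 10.2% in rpa49Δ, ETS 1 66.4% and 67.5%, and ITS 1 16.0% and 17.2%, all with overlap. ETS 2 then held 7.03% and 5.07% and did not overlap.

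The first nucleotides of ITS 2 carry the 3′ extension of 5.8S precursors, which exonucleases trim in steps. The 5.8S end is shown with capitals at positions 3021 to 3027, all of which rose.
5.8S end, positions 3007 to 3032, chrXII:464538-464563: uugagcgucauuucCUUCUCAaacau

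Position 3025 (U) held 5462, 6866 and 5978 spacer RPM in WT and 37993, 33233 and 37552 in rpa49Δ, with no overlap and a rise of 2.56 log2 units with an SE of 0.194 (adjusted p = 7.42e-07, limma). The 7 positions rose by 1.97 to 2.58 and together held 2.41% ± 0.307 of spacer reads in WT and 13.3% ± 1.08 in rpa49Δ. Just past them the log2 change at 3028 was 0.54, or -0.83 on the whole-gene scale, and with any 1 WT library left out it did not pass the threshold (adjusted p = 0.0645 to 0.104, limma). Further into ITS 2, positions 3077, 3078 and 3079 rose by 2.91, 3.00 and 3.03, from means of 88.1, 141 and 265 to 1358, 1833 and 2872 spacer RPM, and on the whole-gene scale had log2 changes of 1.27, 1.29 and 1.26. Scaled on the whole gene, the 7 positions from 3021 to 3027 had log2 changes of 0.21 to 0.72, and 3021, 3023, 3024 and 3027 no longer passed the threshold. For the bin at 3020 to 3069 the change was 1.81 by its mean, -0.20 by its median position and -0.057 on the whole-gene scale. Deeper in ITS 2 the bins that start at 3120, 3170 and 3220 changed by -0.62, -0.33 and -0.39 log2 units on the spacer scale, but by 0.11, 0.40 and 0.34 with class medians set equal. By the median position the latter pair were 0.10 and 0.11.

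In ITS 1 the share of reads was lower in the 5′ part, at 38.2% ± 0.824 in WT and 26.4% ± 0.804 in rpa49Δ, and was higher in the middle part, at 38.7% ± 0.840 and 50.1% ± 0.885. Neither part overlapped between strains (exact permutation p = 0.1 each). The bin at 2651 to 2700, which holds 2659 and 2666, changed by 0.68 log2 units by its mean, -0.16 by its median position and -1.16 on the whole-gene scale. The bins that start at 2501 and 2551 had changes of -0.66 and -0.91, but 0.077 and -0.18 with class medians set equal, where neither passed the threshold, and -0.026 and -0.56 by the median position.

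Within mature rRNA, reads at the 3′ ends of all 3 rRNAs were a larger share in rpa49Δ and reads at the 5′ ends a smaller one. The last 10 nt of 18S held 0.426%, 0.357% and 0.359% of mature reads in WT and 0.646%, 0.908% and 0.986% in rpa49Δ. For 5.8S these were 0.351% ± 0.0441 and 0.530% ± 0.0482, and for 25S 0.587% ± 0.0584 and 0.760% ± 0.0479. The first 10 nt of 18S held 0.0798% ± 0.0113 in WT and 0.00298% ± 0.000769 in rpa49Δ, those of 5.8S 0.0158% ± 0.000586 and 0.00454% ± 0.00133, and those of 25S 0.0159% ± 0.000446 and 0.00673% ± 0.00237. All 6 windows, and the 6 windows of 10 nt just outside them, differed with no overlap between strains (exact permutation p = 0.1 each, also after adjustment over 12 windows). Outside the mature ends, the 10 nt after 5.8S went from 2.51% ± 0.308 to 13.4% ± 1.08 of spacer reads and the 10 nt after 25S from 0.678% ± 0.123 to 1.57% ± 0.0669. The 10 nt after 18S went from 0.222% ± 0.00447 to 0.333% ± 0.0631. On the 5′ side directions were mixed. The 10 nt before 18S went from 0.280% ± 0.0194 to 0.122% ± 0.0393 and those before 5.8S from 0.234% ± 0.00560 to 0.193% ± 0.00234. Those before 25S rose, from 0.255% ± 0.0165 to 0.425% ± 0.0367. At each mature 3′ end 3 adjacent positions were listed as 0 in all 6 libraries (2499 to 2501, 3018 to 3020 and 6647 to 6649). No source read here says why.

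The ends of 18S and 25S are shown with the positions described below in capitals, at 2495 and 2498 in the first and at 6645, 6646, 6650 and 6653 in the second.
18S end, positions 2488 to 2513, chrXII:465057-465082: ggaaggaUcaUuaaagaaauuuaaua
25S end, positions 6635 to 6660, chrXII:460910-460935: uugucugauuUGuuuUuuAuuucuuu

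At the 18S end, position 2498 (U) held 1792, 1485 and 1526 mature RPM in WT and 2938, 4479 and 4594 in rpa49Δ, and rose by 1.29 log2 units with an SE of 0.174 (adjusted p = 1.18e-05, limma). Position 2495 (U) rose by 1.58, with an SE of 0.139. A few bases upstream, position 2491 (A) fell by 2.98. At the 25S end, position 6646 (G) had the highest mean of mature rRNA in WT, at 2268, 2749 and 2681 mature RPM, and 3166, 2820.3 and 2850.1 in rpa49Δ. The rpa49Δ libraries all lay above WT there, but by little, and the log2 change of 0.20 did not pass the threshold (adjusted p = 0.274, limma). Position 6645 (U) had a log2 change of 0.63. In ETS 2, just past the mature end, 6650 (U) held 1659.8, 2342 and 1809 spacer RPM in WT and 6895, 6627 and 7154 in rpa49Δ (log2 change 1.79, and -0.032 on the whole-gene scale). Position 6653 (A) had a log2 change of 1.91, but 0.17 on the whole-gene scale (adjusted p = 0.453, limma).

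**Figure D4:**
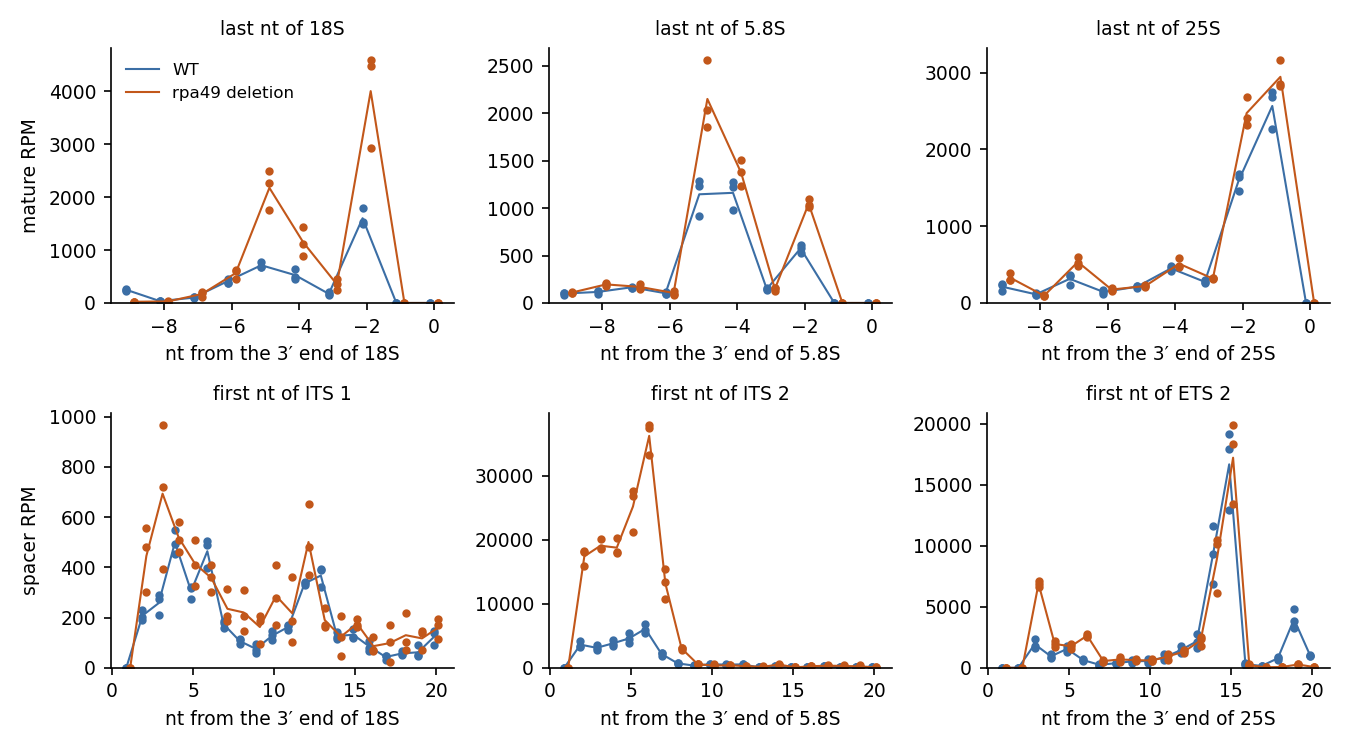
Levels in the last 10 nt of 18S, 5.8S and 25S in mature RPM (top) and in the next 20 nt in spacer RPM (bottom) against distance from the annotated 3′ end, with a point for each library and a line for each strain's mean. The first nt of ITS 2 rise together in rpa49Δ, to 36259 spacer RPM at position 3025 against 6102 in WT, while the peak at position 6662 in ETS 2 has means of 17224 in rpa49Δ and 16679.5 in WT.

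ETS 2 holds the residues that the table annotates as cleaved by Rnt1, the RNase III enzyme that cuts the 3′ spacer as it emerges. The site is shown with 6661, 6662 and 6666 in capitals, since the values on either side of the first annotated residue differ in how they changed.
Rnt1 site, positions 6651 to 6676, chrXII:460894-460919: uuauuucuuuCUaagUggguacuggc

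Position 6662 (U), just before the first annotated residue, held 12912, 19169 and 17957 spacer RPM in WT and 18349, 13399 and 19923 in rpa49Δ. The strains overlapped and the log2 change was 0.046 (adjusted p = 0.889, limma), although scaled on the whole gene it fell by 1.81. Position 6666 (U), among the annotated residues, held 3239.9, 4829 and 3877 in WT and 278, 193 and 342 in rpa49Δ, from 8 to 12 reads, and fell by 3.46 log2 units with an SE of 0.203 (adjusted p = 8.45e-08, limma). Of the 35 annotated residues (6663 to 6697), 29 could be tested, and 15 of them fell while the rest did not pass the test, beside 40.5% lower and 17.1% higher over all tested spacer positions, and with class medians set equal 12 fell and 1 rose. Together they held 1.79%, 2.36% and 1.87% of spacer reads in WT and 0.606%, 0.484% and 0.565% in rpa49Δ, whereas 6661 and 6662 together held 2.60% ± 0.562 and 2.61% ± 0.576. The 119 positions after the terminator element T1 (position 6739) held 0.614% ± 0.0722 in WT and 0.118% ± 0.0286 in rpa49Δ, from 25 to 57 reads a library. Within them the annotated Reb1/Nsi1 site held 0.0763% ± 0.00356 and 0.0113% ± 0.000939, the latter from 3 to 5 reads. Positions 6748 to 6797, as a bin, fell by 1.60 log2 units.

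In mature rRNA the changes of bins were smaller, and those of 18S began with falls. Of 36 bins in 18S 6 rose and 14 fell, of 3 in 5.8S 1 rose, and of 68 in 25S 9 rose and 13 fell. These stand beside 15.0% higher and 25.2% lower over all mature bins. In 25S the bin that starts at 3452 had a log2 change of -0.38, and those from 5152 and 5652 had 0.38 and 0.36. The first 7 bins of 18S, from 701 to 1050, all fell, by 0.28 to 0.52 log2 units, or by 0.16 to 0.93 by the median position. The largest of these falls was in the bin at 901 to 950, from 105 ± 10.8 to 70.0 ± 3.72 mature RPM per nt (SE of the log2 change 0.0858, adjusted p = 5.18e-04 by limma). The bin at 1101 to 1150 rose by 0.33, and the last bin, at 2451 to 2500, by 0.56, though by the median position these were 0.21 and 0.14 and the last did not pass the threshold. The 5′ part of 18S held 35.3%, 36.3% and 36.2% of its reads in WT and 32.7%, 33.3% and 32.9% in rpa49Δ, and the 3′ part 28.5% ± 0.357 and 31.3% ± 0.665. The shares of 25S moved the same way, with 32.5% ± 0.204 and 29.9% ± 0.449 in its 5′ part and 34.5% ± 0.224 and 35.8% ± 0.455 in its 3′ part. None of these 4 parts overlapped between strains (exact permutation p = 0.1, or 0.131 after adjustment). The share of 18S in mature reads went from 35.2% ± 0.364 to 34.2% ± 0.635 and that of 25S from 61.7% ± 0.371 to 62.3% ± 0.468, and the latter overlapped.

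By rule, named positions are the 10 largest rises and 10 largest falls among called positions above the mean level of their class. The 5 highest of each class in each strain are also named, and other positions were chosen after their values were seen. In mature rRNA the largest fall was at 702 (A), the second base of 18S, by 5.02 log2 units with an SE of 0.144 (adjusted p = 1.03e-13, limma). It went from 369.7, 411 and 484 mature RPM in WT to 5.32, 1.31 and 3.30 in rpa49Δ, the latter from 2 to 8 reads. Position 1899 (G) in 18S fell by 4.62, from a mean of 799 to 23.3, and 3452 (A) in 25S by 3.78, from 739.6 to 44.5. At 1223 (G), 3271 (A), 845 (A), 988 (A), 3726 (G), 4121 (G) and 3536 (A) the levels fell by 3.09 to 2.38. All 10 are purines, and A and G take 26.6% and 27.3% of mature positions. Among all mature positions that fell, 450 were A, 451 G, 164 C and 217 U. A position that fell passed the level filter mainly through its WT value, so the bases of these 10 are no separate evidence of a shift. The 3 that fell most are shown with 10 nt on each side and the fallen base in capitals.
18S start, position 702, positions 692 to 712, chrXII:466858-466878: uaagauaguuAucugguugau
18S, position 1899, positions 1889 to 1909, chrXII:465661-465681: acucaacacgGggaaacucac
25S, position 3452, positions 3442 to 3462, chrXII:464108-464128: uccuuggaacAggacgucaua

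The rises of mature rRNA were led by 6399 (U) in 25S, with 376, 475 and 420.1 mature RPM in WT and 1182, 7843 and 2193 in rpa49Δ. Its log2 change of 2.67, with an SE of 0.403 (adjusted p = 3.88e-05, limma), came with a 6.63-fold spread among the rpa49Δ libraries, and the bin at 6352 to 6401 changed by 0.61 by its mean but -0.069 by its median position. Without WT library 3 that bin did not pass the threshold (log2 change 0.60, adjusted p = 0.0555 by limma). The next rise, 1202 (U) in 18S, was from 105, 99.7 and 113 to 382, 383 and 295 (log2 change 1.64), and the remaining 8 positions rose by 1.10 to 1.58. The highest position of 18S in WT, 1031 (A), fell by 1.37, from a mean of 2039.8 ± 172 to 789 ± 116. Another high WT position, 6628 (G) in 25S, had means of 1602 in WT and 2053 in rpa49Δ. The strains overlapped there (log2 change 0.36, adjusted p = 0.103 by limma).

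Across all positions the base at the RNA 3′ end shifted away from purines, in spacers and in mature rRNA alike. Relative occupancy, the share of a class's reads at a base divided by the share of its positions with that base, was for G in spacers 1.29, 1.24 and 1.26 in the WT libraries and 0.507, 0.577 and 0.591 in the rpa49Δ libraries. For U in spacers it was 0.698, 0.726 and 0.711 against 1.18, 1.15 and 1.20. Spacer C went from 0.799 ± 0.0393 to 1.20 ± 0.0983 and spacer A from 1.23 ± 0.0166 to 1.04 ± 0.101. In mature rRNA the directions were the same and the sizes smaller, and A went from 1.23 ± 0.0113 to 1.14 ± 0.0148, G from 0.939 ± 0.0145 to 0.864 ± 0.0225, C from 0.868 ± 0.0208 to 0.965 ± 0.0416 and U from 0.926 ± 0.00573 to 1.02 ± 0.0108. None of the 8 values overlapped between strains (exact permutation p = 0.1 each, also after adjustment over the 8). Without positions near the rRNA ends spacer A overlapped, at 1.28 and 1.21.

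**Figure D5:**
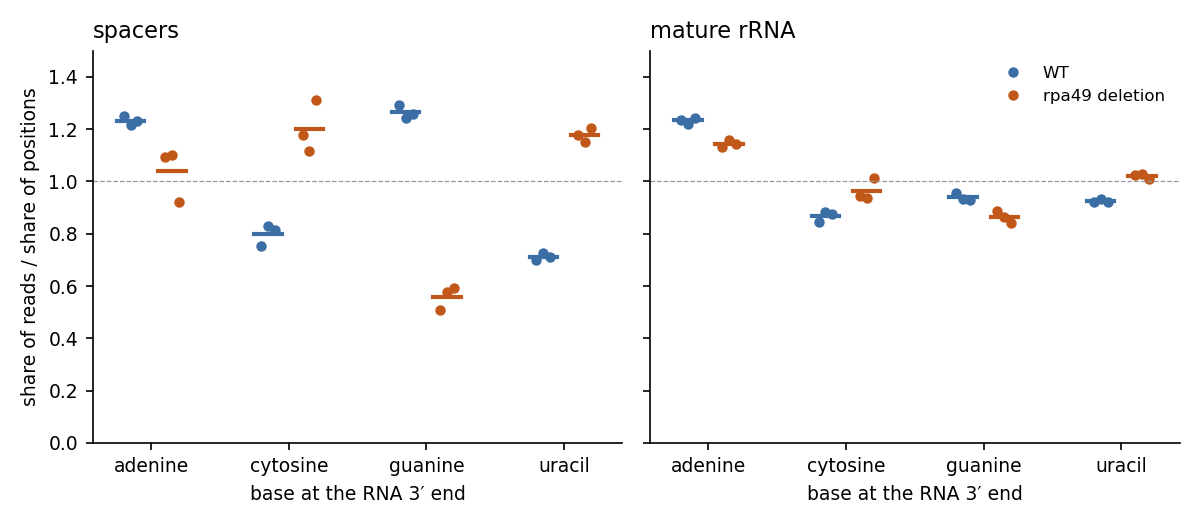
Relative occupancy at each base of the RNA 3′ end, as a share of class reads over the share of class positions, for spacers (left) and mature rRNA (right), with a point for each library and a bar for the mean. Guanine in spacers drops from 1.27 to 0.559 and uracil rises from 0.712 to 1.18, and mature rRNA moves the same way by less.

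The neighbouring bases shifted as well. G at the base before the 3′ end (-1), the base with the highest occupancy there in WT, went from 1.77 ± 0.0326 to 1.36 ± 0.0973 in spacers and from 1.31 ± 0.00645 to 1.19 ± 0.0125 in mature rRNA. C at -1 went from 0.994 ± 0.0393 to 1.75 ± 0.0719 in spacers and from 0.817 ± 0.0139 to 0.869 ± 0.0162 in mature rRNA. At the next base to be added (+1), C went from 0.734 ± 0.0263 to 1.43 ± 0.110 in spacers. None of these overlapped between strains (exact permutation p = 0.1 each, or 0.114 after adjustment over 8 values). In spacers the rises of C at -1 and at +1 rest in large part on the same few peaks. Positions 138 and 3025, with C on each side, went from means of 233 and 6102 spacer RPM in WT to 60618 and 36259 in rpa49Δ. Positions were also split by the GC content of the last 9 nt into low, middle and high. Relative occupancy in spacers at middle GC went from 1.02, 0.983 and 1.00 to 0.708, 0.684 and 0.734. At high GC it went from 1.52 ± 0.0209 to 1.72 ± 0.0576 and at low GC from 0.750 ± 0.0188 to 0.797 ± 0.0198, so no steady trend with GC appeared. In mature rRNA at high GC the strains overlapped. By the GC of the next 9 nt, spacers at low GC went from 0.754 ± 0.00676 to 0.861 ± 0.0313. Those at high GC went from 1.26 ± 0.0184 to 1.08 ± 0.116, both with no overlap, while at middle GC the strains overlapped.

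In counts of single positions purines fell more often than they rose in both classes. Pyrimidines rose more often than they fell in mature rRNA, but in spacers only with class medians set equal. Each position counts alike here, though strong peaks still lower the other spacer positions through the class total. Of 344 tested spacer positions that end in A, 36 rose and 182 fell, and of 288 in G 25 rose and 154 fell. In mature rRNA 256 rose and 450 fell of 1413 in A, and 240 and 451 of 1457 in G. Purines right after a G are a part of these. Of 171 such tested spacer positions 8 rose and 117 fell, and of 830 in mature rRNA 92 rose and 350 fell. The share lower in mature rRNA was 42.2% for that part, against 31.9% for all A and 31.0% for all G. Of 577 tested spacer positions that end in a pyrimidine, 146 rose and 154 fell, and of 2452 in mature rRNA 664 rose and 381 fell. With class medians set equal, spacer counts were 15 higher and 93 lower for purines after G, and 224 higher and 97 lower for pyrimidines. For all spacer A they were then 57 higher and 132 lower, and for all spacer G 45 and 114. The counts on the class scale stand beside 17.1% higher and 40.5% lower for all tested spacer positions and 21.8% and 24.1% for mature positions.

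Trinucleotides from -1 to +1, whose middle base is the RNA 3′ end, were fitted as 62 spacer and 64 mature values. In spacers 19 rose (30.6%) and 32 fell (51.6%), and in mature rRNA 28 rose (43.8%) and 14 fell (21.9%), by limma at an adjusted p under 0.05. The 5 largest falls in mature rRNA were at UAU and at GAG (-0.55), GAU (-0.48), GGU (-0.47) and GGG (-0.46), with log2 changes in brackets. UAU went from 265 ± 11.6 to 175 ± 6.01 mature RPM per position and fell by 0.60 log2 units with an SE of 0.0413 (adjusted p = 3.43e-13, limma). At GGG 67 of 115 tested positions fell and 10 rose, beside 24.1% lower and 21.8% higher over all tested mature positions. The 5 largest rises were at ACA (0.36), AUC (0.32), AUU (0.32), CCA (0.27) and UCC (0.27). By the mean of logs, which weights positions alike, ACA, AUC, CCA and then UCC had 0.23, 0.10, 0.17 and 0.15. The change of AUU became 0.069 (adjusted p = 0.116, limma) by that measure, with 18.2% of its rpa49Δ reads at position 2498.

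The 5 largest falls in spacers were at GGG (-2.31), AGG (-2.03), CGG (-1.80), AAG (-1.59) and GGU (-1.58). By the mean of logs these were, in the same order, -1.72, -0.67, -1.21, -0.82 and -1.73. At AGG 5 of 12 tested positions fell, close to the 40.5% lower over all tested spacer positions. GGG went from 1952 ± 109 to 396 ± 43.2 spacer RPM per position, and 17 of its 19 tested positions fell, beside that same 40.5%. Single peaks held much of the rises. CUC had a log2 change of 3.39, with 59.8% of its rpa49Δ reads at position 138, and UCG had 1.21, with 74.3% at position 120. By the mean of logs these were 1.04 and 0.26, and GCC, at 1.08 by mean level, was 0.13 (adjusted p = 0.0714, limma). UCU and UCA had log2 changes of 1.51 and 1.26 by mean level but 0.36 and 0.22 by the mean of logs, with 35.0% and 67.4% of rpa49Δ reads at positions 3024 and 3026.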

How the data were processed

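Per the labels' protocols, a linker with a molecular identifier was ligated to RNA from the Pol I immunoprecipitate. The submitters' processing notes list build R64 and, with no order, R 4.0.2, bedtools 2.28.0, SAMtools 1.6, STAR 2.7.1a, cutadapt 3.4 and bcl2fastq 2.20.00. How these were set, and whether the identifiers were used, is not stated. The authors deposited replicate values in RPM, per 1000000 reads from position 1 to T1. At least 99.9563% of the values of each library were whole multiples of 1 read within 0.01 read, so reads were recovered and rescaled within spacers and within mature rRNA. The deposited ratio and p-value were not used.

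limma 3.58.1 (R 4.3.3; lmFit, eBayes with trend) tested log2(spacer RPM + 100) and log2(mature RPM + 10) at positions with a mean of at least 100 or 10, which understates changes of low positions. Bins of 50 nt used a pseudocount of 10 per nt. P-values were adjusted by Benjamini-Hochberg over both classes, threshold 0.05. edgeR 4.0.16 on recovered reads was an alternative. Measures with 1 value per library had two-sided exact permutation tests. Unevenness was measured after thinning. The position test was also run on simulated data. No counting intervals were drawn, and the worth of 1 read sets the precision.

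Replicate numbers were not treated as pairs in the main fits. Deviations of same-numbered libraries correlated at -0.22 to 0.11 and those of unlike-numbered ones at -0.14 to 0.24. With 3 libraries per strain these values cannot tell whether libraries were paired. Named positions were, per class, the 10 largest rises and falls among called positions above the class's mean level and the 5 highest in each strain, with the 5 largest rises and falls of bins and trinucleotides. Other positions were chosen after their values were seen. Members and lists were chosen with earlier results of these data known.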

Additional observations from a re-analysis of the deposited data

How the results depend on the processing

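Of the counts of positions, bins and trinucleotides under alternatives, 69 in spacers and 74 in mature rRNA stayed within 1.5 times the main count, and 13 and 8 did not. Scaled on the whole gene, spacer positions came to 34 higher and 908 lower of 1000 tested, spacer bins to 0 and 29 of 30 by limma (the remaining one, from 3020, had -0.057), and mature bins to 38 and 16. With class medians set equal, spacer positions were 326 higher (343 lower) and spacer bins 14 higher and 7 lower. By their median position 1 spacer bin was higher. Bins of 100 nt gave 3 higher and 9 lower in spacers and 10 and 16 in mature rRNA, and bins of 25 nt gave 10 and 38, and 44 and 65, out of other numbers of bins. By the mean of logs, trinucleotides were 9 higher in spacers, and 14 higher and 23 lower in mature rRNA. edgeR gave 234 higher and 496 lower spacer positions. Leaving out 1 library gave 154 to 225 higher and 404 to 528 lower spacer positions, and 839 to 1150 and 1040 to 1334 mature ones. The replicate block gave 199 and 497 in spacers and 1086 and 1260 in mature rRNA, and changed no count by over 1.5 times.

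Directions of the named positions, bins and measures turned as follows, and the cause was not tested. On the whole-gene scale log2 changes were -1.69 at position 437, -0.42 at 625, -0.34 at 627, -0.21, -0.24, -0.55, -0.32 and -0.61 at 132, 134, 141, 142 and 143, -0.83 at 3028, -0.032 at 6650, -0.71 at 6651 and -1.81 at 6662, and in bins -0.43 (from 101), -1.35 (551), -1.16 (2651) and -1.44 (3070), besides that from 3020. By the median position, bins from 551, 2651, 3020, 3170, 3220 and 6352 had -0.39, -0.16, -0.20, 0.10, 0.11 and -0.069. With class medians set equal, bins from 2501, 3120, 3170 and 3220 had 0.077, 0.11, 0.40 and 0.34. Position 6661, uncalled, had 0.30 with medians equal, 0.12 without rRNA ends and 0.27 with TMM. Without rRNA ends the share differences (rpa49Δ minus WT, percentage points) were 1.14 for ETS 1, 1.16 for ITS 1, -0.339 for ITS 2 and 0.993 for the 5′ part of 5.8S (of 3 equal parts). Relative occupancy of spacer A at +1 differed by 0.0458 without rRNA ends and by 0.0891 with positions capped. Leaving out 1 library gave log2 changes of -0.070 to 0.451 at 437, -0.263 to 0.181 at 6661 and -0.127 to 0.216 at 6662. It gave share differences of -0.211 to 0.430 for the middle part of 18S, -0.0910 to 0.804 for the 3′ part of ITS 1 and -2.69 to 0.694 for the 5′ part of 5.8S, and occupancy differences of -0.0187 to 0.0234 for spacer A at +1. Counting error is largest where rpa49Δ spacer positions hold few reads.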
